A study of Caenorhabditis elegans with 2 samples.

Results

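The col genes of Caenorhabditis elegans are collagen genes named by number, and 156 of the 19973 nuclear protein-coding genes in the Ensembl annotation carried a symbol starting with col-. The readout was chromatin recovered with MEL-28, a nuclear pore and kinetochore protein that is the worm relative of ELYS, by ChIP-seq, which sequences the DNA that comes down with a protein. A summit is the position of highest enrichment that the depositors marked inside a peak. For each gene the strongest summit was taken from 1000 bp upstream to 500 bp downstream of its 5′ end, called the promoter window below, and a gene counted whether or not it had one.

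All animals were of 1 strain, OP646 (unc-119(tm4063) III; wgIs646), whose inserted transgene makes MEL-28 fused at its C terminus to GFP and FLAG. They were of mixed sex and were collected whole as young adults, 64 h after synchronisation as starved first-stage larvae that followed bleaching. Chromatin was sonicated and immunoprecipitated with an antibody against GFP, in 1 group of 2 biological replicates. No untagged or untreated group was analysed here, so every comparison below sets the col genes against all nuclear protein-coding genes in the same libraries, and no comparison between conditions exists. Whole animals pool all cell types, so a peak cannot be assigned to the hypodermis or to any other tissue.

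Cuticle collagens are small secreted proteins built around runs of Gly-X-Y repeats, in which glycine recurs at fixed spacing and proline is frequent. The hypodermis makes them around each molt, enzymes hydroxylate, trim and crosslink them, and they form most of the cuticle. Many col genes are switched on in narrow windows of development, with col-17 known from larvae, col-2 from dauer larvae and col-7 and col-19 from adults.

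The predicted proteins matched the family label. By the Ensembl coding sequences, 154 of the 156 members encoded at least 30 Gly-X-Y triplets in runs of 3 or more, with a median of 51 triplets in a protein of median length 304 residues. The most triplets were in col-135, with 198, and in col-99, a transmembrane collagen, with 132. The exceptions were col-55, with 20 triplets, and col-17, whose Ensembl model held 0 triplets where the RefSeq model of the same gene held 51. The 25 members with a pooled summit encoded 47 to 58 triplets, and the 131 without one had a median of 51.

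The lists that carried these values were 4 peak lists on the ce11 build, with 17005 nuclear peaks in the list from both replicates pooled, 23774 in replicate 1 and 19576 in replicate 2, and 369 nuclear peaks in a list thresholded for reproducibility. The signal of a peak is the depositors' own value, whose scale the sources used here do not give, so it is read below only within a list, by rank 1 as the strongest. The median nuclear peak had a signal of 37.7 in the pooled list, 17.8 in replicate 1 and 24.7 in replicate 2. The pooled list rests on the same reads as the replicate lists and is not independent of them.

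Stretches of 201 bases around named summits show what the col summits lay on. They are RefSeq ce11 sequence, 5′ to 3′ on the strand of the col gene, with the summit in the middle. The first group holds tRNA genes, whose bases are in capitals, because the pair of members with the highest pooled signal in the promoter window, col-85 and col-185, lay on them. The tRNA summit of col-99 lies far inside that gene, outside its promoter window. The tRNA gene lies on the opposite strand to col-85 (chrII:12494654-12494854, minus strand) and to col-99 (chrIV:143918-144118, minus strand), and on the same strand as col-185 (chrX:13511872-13512072, minus strand).
col-85: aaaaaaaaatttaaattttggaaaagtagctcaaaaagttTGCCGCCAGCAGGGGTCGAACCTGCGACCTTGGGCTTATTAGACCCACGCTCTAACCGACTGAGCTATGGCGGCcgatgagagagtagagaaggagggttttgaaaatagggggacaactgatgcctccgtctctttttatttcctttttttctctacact
col-185: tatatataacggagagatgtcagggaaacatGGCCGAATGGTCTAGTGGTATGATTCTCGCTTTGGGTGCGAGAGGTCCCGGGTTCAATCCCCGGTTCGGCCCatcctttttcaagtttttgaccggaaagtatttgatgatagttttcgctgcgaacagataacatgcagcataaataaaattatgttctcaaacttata
col-99: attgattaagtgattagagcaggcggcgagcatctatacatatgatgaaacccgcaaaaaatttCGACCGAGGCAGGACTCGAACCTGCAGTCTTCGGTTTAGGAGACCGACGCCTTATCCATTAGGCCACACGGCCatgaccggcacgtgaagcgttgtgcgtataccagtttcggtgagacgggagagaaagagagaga

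The second group lies in coding exons, inside the Gly-X-Y runs of col-145, col-88 and col-44 and outside them in col-87. Capitals mark CCAGGA, which in the reading frame spells a proline and a glycine codon. It occurred 7 times at col-145 (chrV:9162511-9162711, minus strand), 8 times at col-88 (chrIII:41460-41660, plus strand) and 4 times at col-44 (chrX:13591961-13592161, plus strand). At col-87 (chrII:14090166-14090366, minus strand), as at col-106 and col-83, it occurred 0 times. This hexamer was chosen after the sequences had been seen.
col-145: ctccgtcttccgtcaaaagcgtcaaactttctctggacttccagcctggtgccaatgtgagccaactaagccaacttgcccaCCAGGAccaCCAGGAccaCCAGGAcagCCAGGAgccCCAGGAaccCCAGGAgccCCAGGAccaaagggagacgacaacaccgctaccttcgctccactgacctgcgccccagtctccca
col-88: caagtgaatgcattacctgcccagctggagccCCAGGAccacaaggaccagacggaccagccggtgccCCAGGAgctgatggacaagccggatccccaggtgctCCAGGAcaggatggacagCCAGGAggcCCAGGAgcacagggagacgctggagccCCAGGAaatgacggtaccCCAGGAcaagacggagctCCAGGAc
col-44: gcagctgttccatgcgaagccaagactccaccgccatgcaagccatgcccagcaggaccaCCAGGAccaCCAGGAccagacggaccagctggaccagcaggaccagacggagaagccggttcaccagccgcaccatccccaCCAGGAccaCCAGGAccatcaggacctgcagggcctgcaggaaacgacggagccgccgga
col-87: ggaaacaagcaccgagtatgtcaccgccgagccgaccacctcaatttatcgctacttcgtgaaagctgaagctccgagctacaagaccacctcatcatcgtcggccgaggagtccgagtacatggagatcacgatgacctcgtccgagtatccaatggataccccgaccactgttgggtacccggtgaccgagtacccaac

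The third group lies upstream of the gene, where 12 of the 25 pooled summits in the promoter window, 20 of the 35 of replicate 1 and 18 of the 32 of replicate 2 were placed. At col-2 (chrIV:10085685-10085885, minus strand) the capitals mark TGATAA, and at col-95 (chrIII:11703402-11703602, plus strand) none of the letters of the promoter search described further on was present.
col-2: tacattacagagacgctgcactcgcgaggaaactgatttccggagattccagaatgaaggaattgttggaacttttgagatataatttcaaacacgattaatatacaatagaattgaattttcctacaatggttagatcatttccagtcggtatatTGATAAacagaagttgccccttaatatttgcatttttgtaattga
col-95: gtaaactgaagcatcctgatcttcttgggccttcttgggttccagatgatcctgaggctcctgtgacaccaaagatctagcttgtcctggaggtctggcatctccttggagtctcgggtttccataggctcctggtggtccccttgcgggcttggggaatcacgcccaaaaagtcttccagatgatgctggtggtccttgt

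Col genes carried promoter summits less often than the average gene. In the pooled list 25 of 156 members (16.0%, exact 95% interval 10.6% to 22.7%) had a summit in the window, beside 28.2% of all genes. Replicate 1 placed a summit at 35 members (22.4%), beside 37.1% of all genes. Replicate 2 placed one at 32 members (20.5%), beside 30.5%. The members lay below the background in both replicates and in the pooled list. No test stands behind these shares, and the interval covers the counting of genes only, since neighbouring genes can share a peak.

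Members also lay below the background where both replicates had to call a gene. A summit in both replicate lists was present at 11 members (7.05%), beside 18.1% of all genes, and at 8 members (5.13%) the summits lay within 250 bp of each other, beside 13.0%. The pooled list and both replicates together called 9 members (5.77%), beside 15.8% of all genes. At 98 members (62.8%) no list held a summit in the window, beside 49% of all genes. Conversely 58 members (37.2%) had a summit in at least 1 of the pooled and replicate lists, beside 51.0%.

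**Figure D1:**
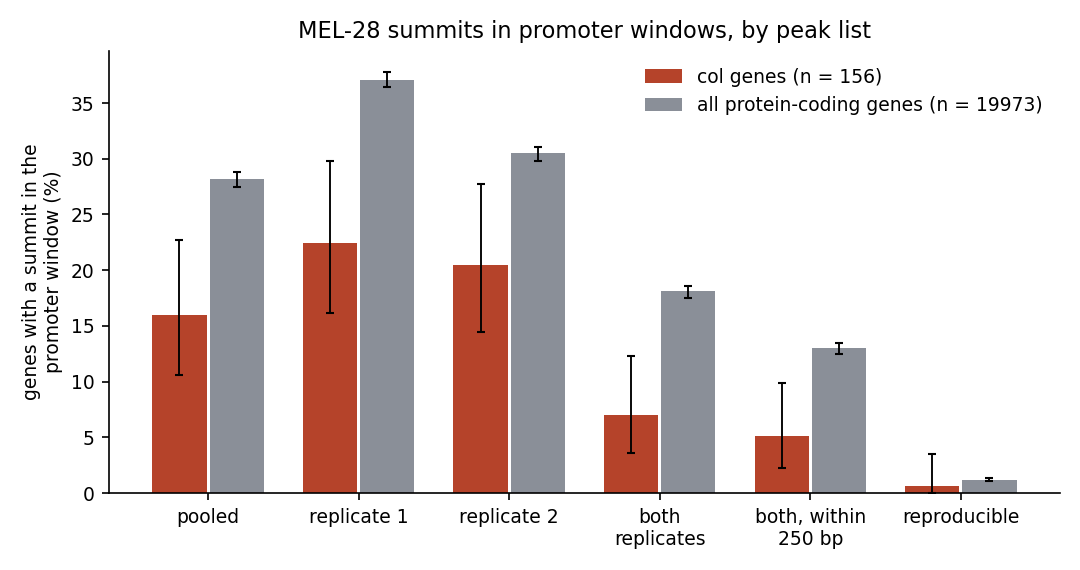
Share of genes with a summit in the promoter window (y axis, percent) by peak list or combination of lists (x axis), with col genes in red and all nuclear protein-coding genes in grey. Black bars are exact 95% intervals over genes. The col share was 16.0% beside 28.2% in the pooled list and 7.05% beside 18.1% in both replicates, and in the reproducible list the col interval spans the share of all genes.

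The replicates named partly different members. Of the 35 members called in replicate 1, 31.4% were called in replicate 2, and of the 32 called in replicate 2, 34.4% were called in replicate 1. For all genes these shares were 48.7% and 59.3%. There were 24 members with a summit in replicate 1 and not in replicate 2, and 21 the other way round. Over the 11 members called in both, Spearman's rho of the signals was 0.182, a description over genes of 2 libraries. At least 1 of the pooled and replicate lists called 37.2% of members, beside 51.0% of all genes, and the pooled list 16.0%, beside 28.2%. By these shares the 33 members with a summit in a replicate and none in the pooled list were near the background. The reverse held for col-46, with a pooled signal of 31.1 and no overlapping peak in either replicate, and for col-88, with 45.7. At col-88 both replicates had a peak that overlapped the pooled one, with summits 47 bp (signal 14.94) and 20 bp (signal 23.3) from a pooled summit that itself lay 497 bp downstream, at the edge of the window.

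Strong peaks were also few at col genes. Among the strongest 1000 nuclear pooled peaks, 2 members (1.28%) had a summit, beside 3.04% of all genes. Among the strongest 5000 there were 6 members (3.85%), beside 11.0%, and among the strongest 10000 there were 15 members (9.62%), beside 19.1%. The median signal of the 25 members was 36.8 (range 30.4 to 93.5), beside 40.6 for all genes with a pooled summit. Of the members' summits 48.0% ranked above the middle of the pooled list, beside 60.2% of those of all genes. The gap was smaller in the replicate lists, at 57.1% beside 59.5% in replicate 1 and 56.2% beside 57.6% in replicate 2. In replicate 1 the members' median was 18.3, beside 19.2, and in replicate 2 it was 26.3, beside 26.0, so a lower median did not recur in replicate 2. Among the strongest 5000 nuclear peaks of replicate 1 there were 4 members (2.56%), beside 11.2% of all genes. Among those of replicate 2 there were 11 members (7.05%), beside 10.0%. No member had a summit among the strongest 1000 or the strongest 2000 nuclear peaks of both replicates, and 2 members had one among the strongest 5000 of both. The share of all genes among the strongest of both was not counted, so these last counts have no background beside them.

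The highest signal belonged to col-85 on chromosome II (WBGene00000660, 12493703 to 12495095, minus strand). It had a signal of 93.5 in the pooled list (rank 358) and 74.96 in replicate 1 (rank 83), and replicate 2 held no summit in its window. The nearest replicate 2 summit lay 690 bp away with a signal of 23.3 (rank 11693), and no replicate 2 peak overlapped the pooled one. The pooled summit lay 341 bp downstream of the 5′ end, in an intron, and inside a tRNA-Ile gene (WBGene00014524, 12494741 to 12494814, plus strand). It was the only member with a reproducible summit in the window (0.641% of members, beside 1.22% of all genes), although 1 of the 2 replicates had no overlapping peak.

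Next came col-185 on chromosome X, with a signal of 75.4 in the pooled list (rank 771), 34.9 in replicate 1 (rank 1077) and 35.2 in replicate 2 (rank 2832). Its summit lay 875 bp upstream, inside a tRNA-Pro gene (WBGene00014413, 13511970 to 13512041, minus strand). The third tRNA case was col-54 on chromosome I, at 36.1 in the pooled list and 30.2 in replicate 2, with no replicate 1 summit in the window and a tRNA-Arg gene (WBGene00023024) 85 bp from the summit. These 3 members are all those with a small RNA gene in the window, and all 3 had a pooled summit, as did 64.9% of all genes with a small RNA gene in the window. A small RNA gene lay within 500 bp of the pooled summit at 12% of the 25 members, beside 4.12% of all genes with a summit.

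Among members without a tRNA gene nearby, col-71 and col-2 led. For col-71 the signal was 55.9 in the pooled list (rank 2168), 26.1 in replicate 1 and 31.9 in replicate 2, at a summit in an intron 304 bp downstream of the 5′ end. For col-2, the dauer collagen, it was 52.8 in the pooled list (rank 2664), 16.3 in replicate 1 and 34.7 in replicate 2, at a summit 334 bp upstream. Both replicates placed a summit near the pooled one at col-2, but at rank 15439 in replicate 1 and rank 2959 in replicate 2. The 5′ end of ndc-80, a kinetochore gene, also lay in the col-2 window, so the summit cannot be assigned to col-2 alone. Likewise the col-71 window held the 5′ end of Y49F6B.2, and the noncoding RNA gene Y49F6B.15 lay within 500 bp of the col-71 summit. That summit cannot be assigned to col-71 alone.

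Below them stood members whose window held a summit in 1 of the replicates. A coding-exon summit gave col-145 a signal of 49.25 in the pooled list and 26.5 in replicate 1, with none in replicate 2. Conversely col-106 had 42.9 in the pooled list and 31.7 in replicate 2, with none in replicate 1, and so did col-129, with 39.1 and 27.75, and col-95, with 38.8 and 34.0. At col-111 the pooled signal was 38.1 and that of replicate 1 was 18.9, with no replicate 2 summit in the window, although a replicate 2 peak of 20.3 (rank 16570), with its summit 270 bp away, overlapped the pooled one. Both replicates called col-83, with 42.6 in the pooled list, 16.5 in replicate 1 and 18.98 in replicate 2. Both also called col-120, with 39.5, 21.0 and 26.8 in the same order, and col-40, with 36.2, 19.03 and 19.3.

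Other genes stood closer to several of these summits. The col-129 summit lay inside dlc-2, a dynein light chain gene. At col-38, with a signal of 36.8 in the pooled list and 33.7 in replicate 2, the nearest 5′ end was that of the ribosomal protein gene rpl-5, 400 bp away. At col-111 it was that of mrps-21, a mitochondrial ribosomal protein gene, 704 bp away. In all, the nearest protein-coding 5′ end was the member's own at 21 of the 25 summits (84.0%), beside 82.4% of all genes with a pooled summit.

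Each replicate list had leading members of its own. In replicate 1, after col-85, col-185, col-145 and col-71, came col-132 with 21.8 (rank 6261), which no other list called. In replicate 2 the leader was col-119 with 53.1 (rank 497), followed by col-184 with 39.5, col-48 with 39.01, col-185 with 35.2 and col-140 with 34.7. The col-119 summit had no counterpart in the window in the pooled list or in replicate 1. It lay 468 bp downstream of the 5′ end, near the downstream edge of the window, and the pooled list held a summit at 38.6 in the same gene, 510 bp from the 5′ end and so just outside.

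**Figure D2:**
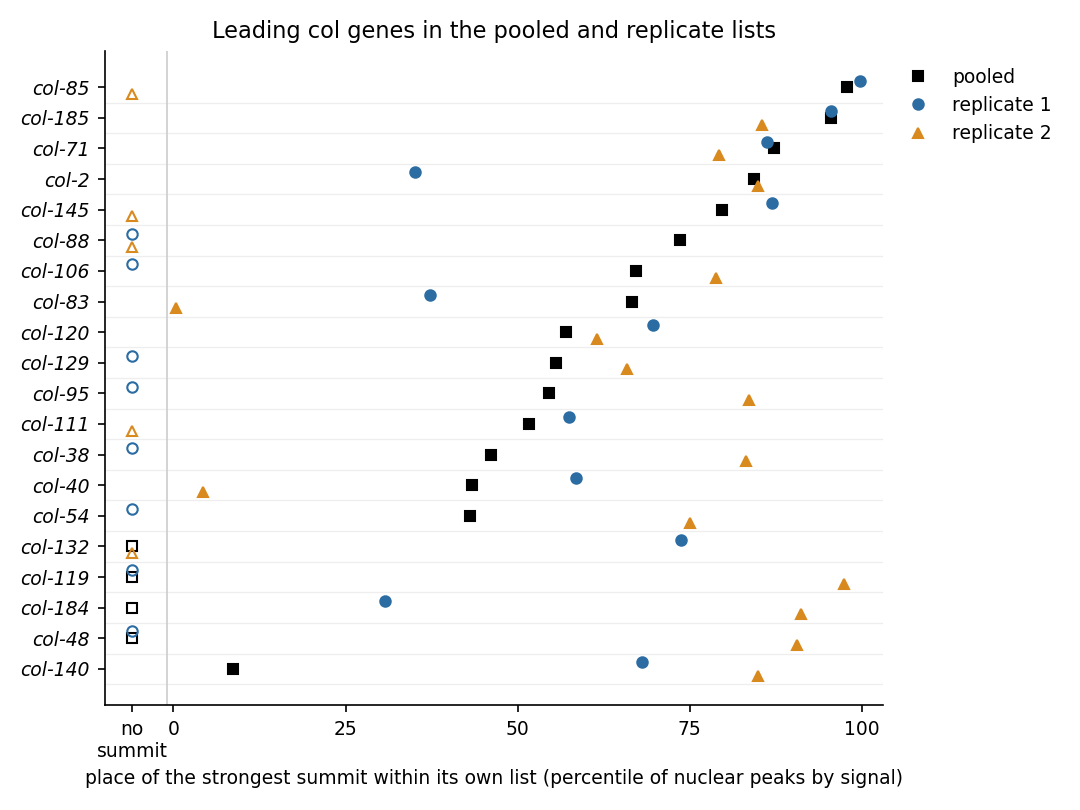
Place of the strongest promoter-window summit within its own list (x axis, percentile of the nuclear peaks ranked by signal, 100 the strongest) for the 15 members with the highest pooled signal and the 5 highest in each replicate (y axis). Filled symbols are values and open symbols at the left are lists without a summit. For col-185, col-71 and col-120 the symbols of all lists stand close together, while col-85, col-145 and col-119 have an open symbol for at least 1 replicate.

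Members chosen for their known expression or structure gave few calls, and 62.8% of all members had none in any list. The dauer collagen col-2, described above, was called in the pooled list and in both replicates. For col-19, the adult hypodermal collagen, replicate 2 placed a summit of 21.0 (rank 15246) in a coding exon 343 bp downstream, and neither the pooled list nor replicate 1 held one. For col-7, also adult, and for col-10, col-12, col-13, col-17 and col-99, no list held a summit in the window. The differing gene models of col-17 place its 5′ end 2 bp apart. The pair col-9 and col-44 shared 1 summit in replicate 1, with a signal of 13.85 (rank 22589), which lay 497 bp downstream of the col-9 5′ end and at −943 bp from that of col-44.

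Where a promoter summit was present, it tended to lie away from the 5′ end. Of the 25 pooled summits 12 (48.0%) were upstream, beside 70.6% for all genes, and the median position was 95 bp downstream, beside 198 bp upstream for all genes (−198). The 250 bp just upstream of the 5′ end held 1 member's summit (4%), beside 26.1% for all genes. The stretch from 250 to 500 bp downstream held 9 (36%), beside 11.8%. In replicate 1, 57.1% of members' summits were upstream, beside 69.9%, and in replicate 2, 56.2% were, beside 68.5%. The median position was −191 bp in replicate 1, beside −207 bp for all genes, and −152 bp in replicate 2, beside −206 bp. A downstream median was thus seen in the pooled list only. The stretch from 250 to 500 bp downstream held 28.6% in replicate 1, beside 12.8%, and 31.2% in replicate 2, beside 13.8%. Within 100 bp of the 5′ end lay 1 member's summit in replicate 1 and 0 in replicate 2, beside 16.3% and 16.9% of those of all genes.

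**Figure D3:**
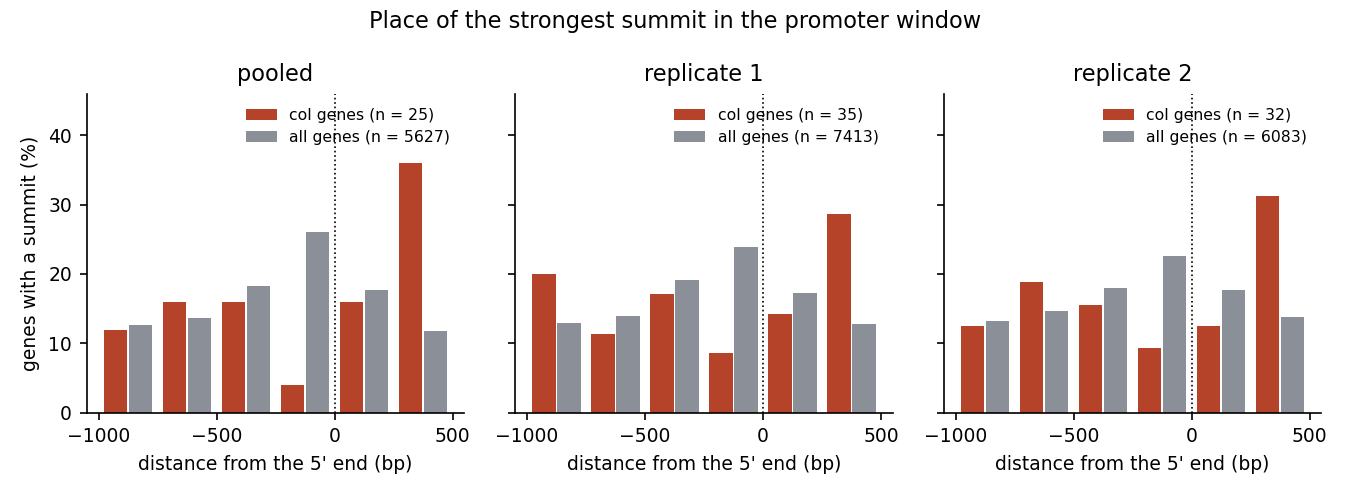
Share of genes with a promoter-window summit (y axis, percent) whose strongest summit fell in each 250 bp bin (x axis, distance from the 5′ end, dotted line at 0), with col genes in red and all protein-coding genes in grey, for the pooled list and both replicates. In the pooled list the bin just upstream of the 5′ end held 4% of the col summits beside 26.1% of all, and the bin farthest downstream 36% beside 11.8%.

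Because the pooled summits leaned downstream, the whole gene was then examined. The counts in this and the next paragraphs were added after the window counts had been seen. A pooled summit lay between the ends of the gene at 55 members (35.3%), beside 32.1% of all genes, a share near the background although col genes were shorter (median 1220 bp, beside 2027 bp). Replicate 1 had one at 69 members (44.2%), beside 41.7%, replicate 2 at 58 (37.2%), beside 36.7%, and both replicates at 35 (22.4%), beside 23.5%. Of the members with a summit in the gene in replicate 1, 50.7% had one in replicate 2, beside 56.3% for all genes, and the reverse share was 60.3%, beside 64%. For 38 members (24.4%) the pooled list held a summit in the gene and none in the promoter window, beside 16.1% of all genes.

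Per length, col genes were low in summits upstream, somewhat below all genes in the first 500 bp of the gene, and high in the rest of the gene. In the 500 bp upstream of the 5′ end the pooled list held 89.7 summits per Mb at col genes, beside 292 at all genes. In the first 500 bp of the gene the density was 179 per Mb, beside 206. In the rest of the gene it was 358 per Mb, beside 163. In the 500 bp past the 3′ end it was 192 per Mb, beside 317.

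In the replicate lists these parts of col genes stood on the same side of all genes as in the pooled list. In replicate 1 the 500 bp upstream held 128 summits per Mb at col genes, beside 369, and the rest of the gene held 422, beside 231. In replicate 2 the corresponding densities were 115 per Mb, beside 299, and 339 per Mb, beside 191. The number of summits behind the col densities was small, with 7 pooled summits in the upstream 500 bp and 56 in the rest of the gene.

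**Figure D4:**
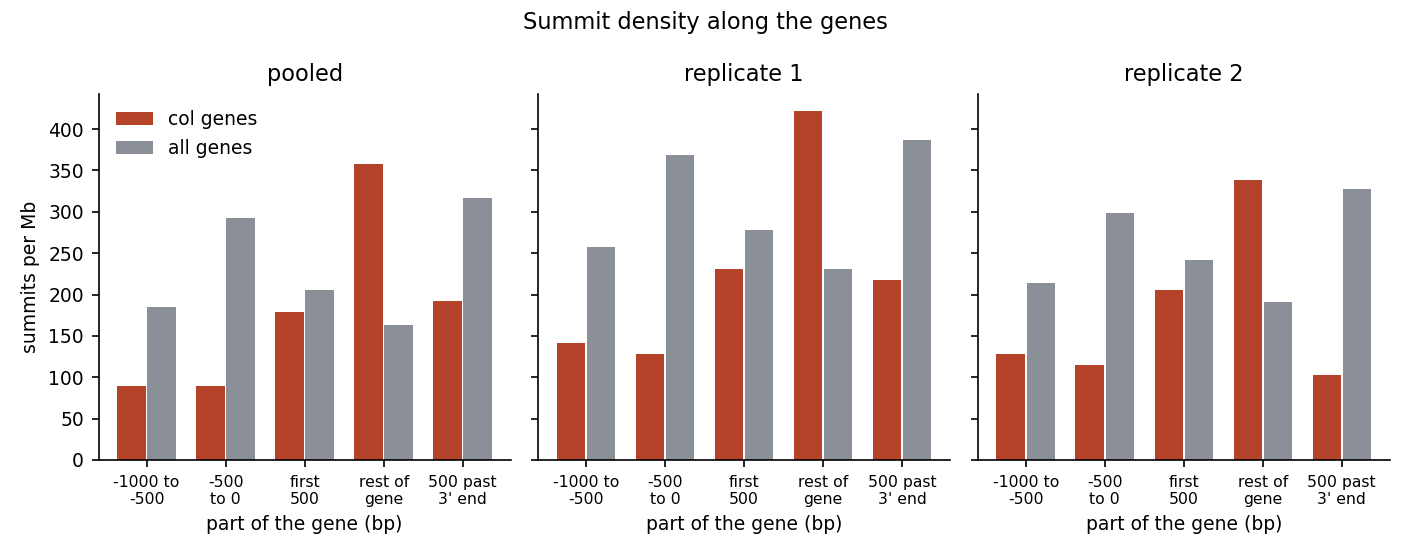
Density of summits (y axis, summits per Mb) in 5 parts of the gene (x axis, bp relative to the 5′ end, and past the 3′ end), with col genes in red and all nuclear protein-coding genes in grey, for the pooled list and both replicates. Col genes stand below all genes in the upstream parts and above them in the rest of the gene, at 358 beside 163 per Mb in the pooled list.

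Most summits inside col genes lay in coding exons. Taking the strongest pooled summit in each gene, 44 of 55 members (80%) had it in a coding exon, beside 40.6% of the 6421 genes with one, and the median GC content of the 201 bases around it was 59.2%, beside 38.3%. Coding exons made up 64.6% of the length of col genes, beside 38.3% of that of all genes. Coding exons of col genes held 350 pooled summits per Mb, beside 162 for coding exons of all genes. Introns of col genes held 211 per Mb, beside 159. The coding-exon density was not particular to col genes. It was 463 per Mb at cuticle collagen genes named by mutant phenotype, 402 at neuropeptide genes and 342 at ribosomal protein genes, but 154 at cuticlin genes. Within the coding bases of col genes, the Gly-X-Y runs (48.7% of the bases) held 35 of the 53 pooled summits, 475 per Mb, beside 232 per Mb outside the runs. In replicate 1 these densities were 502 and 309 per Mb, and in replicate 2 they were 488 and 219. Of the 44 strongest coding-exon summits, 29 lay in a Gly-X-Y run and 15 outside one, col-87 among them with 65.3 in the pooled list, 15.35 in replicate 1 and 40.5 in replicate 2. Col coding exons were richer in GC, at 54.7% beside 42.9%, while their introns were at 33.6% beside 32.2%. The exon sequences printed above for col-145, col-88 and col-44 have a GC content of 60.7%, 64.2% and 65.7%.

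Summit density in coding exons rose with GC content in all genes. In the classes of 45% GC or more the col genes and the other genes differed less than over all coding exons. The class from 40% to 45% held 3 col genes, too few to compare. Where the coding exons of a gene held 55% GC or more, col genes (81 genes) had 453 pooled summits per Mb, beside 462 for the 224 other genes. Between 50% and 55% GC, 51 col genes had 246 per Mb, beside 276 for 1439 others. Between 45% and 50%, 21 col genes had 272 per Mb, beside 215 for 4346 others. Between 40% and 45%, 3 col genes had 0 pooled summits, beside 153 per Mb for others, and genes under 40% GC, among them no col gene, had 97.3 per Mb. In replicate 1 the class of 55% or more held 465 per Mb at col genes, beside 520, and in replicate 2 it held 427, beside 491. Of the col genes 51.9% fell in that class, beside 1.13% of the other genes. The control library was not analysed here, so the part that the GC content of the recovered DNA has in these densities was not tested.

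**Figure D5:**
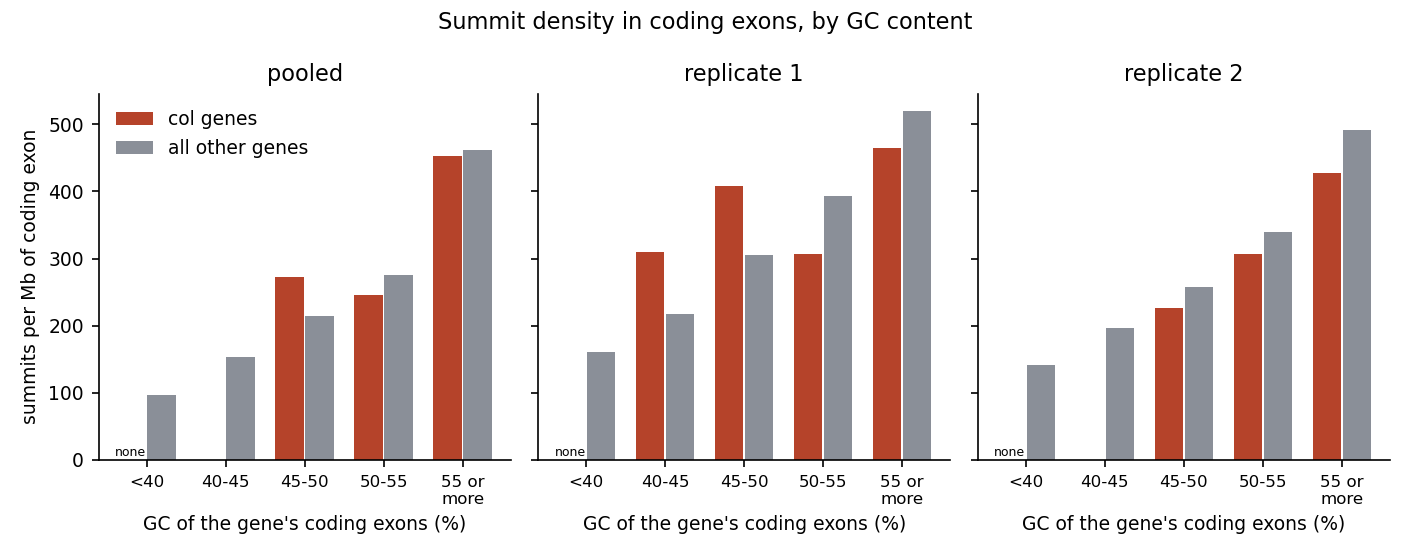
Density of summits in coding exons (y axis, summits per Mb of coding exon) by the GC content of the gene's coding exons (x axis, percent), with col genes in red and all other nuclear protein-coding genes in grey, for the pooled list and both replicates. No col gene fell under 40%, and the class from 40% to 45% held 3 col genes. At 55% or more the pooled densities were 453 per Mb at col genes beside 462 at other genes.

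The GC content also differed at the summits of the promoter windows. The median over the 25 pooled summits was 47.3%, beside 37.8% for all genes with a pooled summit. For the 8 summits in a coding exon it was 58.5%, beside 39.3%, and 6 of the 8 stretches (75%) held CCAGGA, beside 8.39% of coding-exon summits of all genes. CCAGGA was chosen after these sequences had been seen and spells part of the collagen repeat, so an excess over all genes was built in. Its frequency in col coding exons away from summits was not counted. The 12 upstream summits had a median of 41.8%, beside 37.3%. The median GC content of the upstream part of the windows was 34.9%, beside 34.3%.

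The gene-body summit of col-52 ranked above every promoter-window summit of the pooled list, of which col-85 was the highest at rank 358. The gene-body summits named here were picked after their values had been seen. In col-52 on chromosome I a summit in an intron 1314 bp from the 5′ end reached 97.7 in the pooled list (rank 304), with 49.95 in replicate 1 (rank 300) and 50.3 in replicate 2 (rank 644), and it was in the reproducible list. In col-99 an intron summit 3901 bp from the 5′ end reached 88.3 in the pooled list (rank 436) and 45.3 in replicate 1 (rank 426), inside the tRNA gene WBGene00023019 (143982 to 144054, plus strand). The strongest replicate 2 summit in col-99, at 46.6 (rank 886), lay elsewhere in the gene, in a coding exon 6775 bp from the 5′ end. In col-50, on chromosome I, a coding-exon summit reached 79.95 in the pooled list, 35.7 in replicate 1 and 37.8 in replicate 2. In col-44 a coding-exon summit 586 bp from the 5′ end reached 54.55 in the pooled list (rank 2385) and 31.6 in replicate 1. In replicate 2 it was 19.05, at rank 19343 of 19576 nuclear peaks. The strongest gene-body summit lay within 500 bp of a small RNA gene, in each case a tRNA gene, at 4 of 55 members (7.27%), beside 4.36% of all genes with one.

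The strongest reproducible summit beside a col gene lay past its end. At col-181 on chromosome X a summit 129 bp past the 3′ end had a signal of 160.4 in the pooled list (rank 58), 81.1 in replicate 1 (rank 59) and 80.0 in replicate 2 (rank 94), and it lay 12 bp from a tRNA gene (WBGene00014540). Both replicates ranked it high. Of the 3 reproducible summits between 1000 bp upstream and 500 bp past the 3′ end of a member, those at col-181 and col-85 were at tRNA genes, and that in col-52 had no small RNA gene within 500 bp (nearest 11525 bp away).

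The share varied between chromosomes. Members were spread over all 6 nuclear chromosomes, with 41 on IV and 31 on V. The pooled share was 22% on IV, beside 28.0% of all genes there, 25% on II, beside 26.6%, and 25% on III, beside 34.8%. On V it was 6.45%, beside 23.2%, on X 7.41%, beside 26.1%, and on I 14.3%, beside 34.6%. On X the replicate lists called 6 and 7 of the 27 members, where the pooled list called 2. Of the 50 members with another member within 10 kb, 5 (10.0%) had a pooled summit, beside 20 of the 106 others (18.9%). In the clustered members a median of 88.0% of the 31-base words of the window were unique in the genome, beside 99% in the others, and the part of repeated sequence in these counts was not tested.

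Another protein-coding 5′ end lay in the window of 22 members (14.1%), beside 21.6% of all genes. Of these members 18.2% had a pooled summit, beside 38.3% of all genes with such a neighbour. Among the 131 members with neither another 5′ end nor a small RNA gene in the window, 13.7% had one, beside 24.6% of all such genes. The part of neighbouring genes in the members' share was not tested.

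The letters of the promoters were compared next. In the 250 bases before and 50 after the 5′ end, on either strand, TATAAA was present at 66.0% of members, beside 37.9% of all genes, and at 56.0% of members with a pooled summit beside 67.9% of those without. TGATAA or AGATAA, the letters of GATA factor sites, were present at 50.6% of members, beside 44.6%. CACGTG was at 1.28%, beside 5.82%, AGGTCA at 13.5%, beside 8.27%, TTTCACTTT at 3.85%, beside 2.57%, and GAGAGA at 26.9%, beside 21.8%. The tRNA B box was at 0.641%, beside 0.165%. The promoter of col-19 (chrX:421457-421706, plus strand), shown because that gene had no upstream summit in any list, holds TATAAA and the reverse complement of AGATAA, both in capitals in the RefSeq ce11 sequence, which ends 1 base before the 5′ end.
col-19: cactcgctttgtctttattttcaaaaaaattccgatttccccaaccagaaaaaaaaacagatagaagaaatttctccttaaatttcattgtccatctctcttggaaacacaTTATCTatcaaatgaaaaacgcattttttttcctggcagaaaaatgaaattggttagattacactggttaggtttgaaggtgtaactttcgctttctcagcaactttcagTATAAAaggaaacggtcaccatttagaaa

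Genes of the same pathway had other shares. Cuticle collagens named by mutant phenotype, such as dpy, rol, sqt and bli genes, encode the same kind of protein, and 10 of 22 (45.5%, exact 95% interval 24.4% to 67.8%) had a pooled summit. Replicate 1 called 7 of 22 (31.8%), replicate 2 called 9 (40.9%) and both called 3 (13.6%), so the share stood above that of all genes in the pooled list and replicate 2 and below it in replicate 1 and in both. Their pooled signals were low, from 30.01 at dpy-10 to 42.7 at dpy-7 (genes named here as the ends of the range), and 0 of 22 genes had summits of both replicates within 250 bp of each other. The next list joined genes that fold, modify, trim or crosslink collagens with secretion genes such as sec-23 and sec-24.1. It had a pooled summit at 11 of 20 genes (55%), beside 28.2% of all genes. Each replicate called 11 (55%), beside 37.1% in replicate 1 and 30.5% in replicate 2, and both called 8 (40%), beside 18.1%. The protein disulfide isomerase genes pdi-3 and pdi-6 led in signal, as seen in the values. For pdi-3 it was 74.9 in the pooled list, 33.4 in replicate 1 and 41.9 in replicate 2. For pdi-6 it was 72.2, 39.7 and 38.8 in the same order. The list of regulators of cuticle genes, among them the transcription factors blmp-1, nhr-23 and elt-3, had 0 of 9 in the pooled list and in replicate 2, and 2 of 9 in replicate 1, blmp-1 (signal 16.2) and grh-1 (signal 20.2). Both were named because the count is small. Basement membrane collagens had 1 of 4 in the pooled list, 0 in replicate 1 and 2 in replicate 2.

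Other large families gave the range of shares. Cuticlin genes, which encode another class of cuticle protein, had a pooled summit at 6 of 35 (17.1%), with 28.6% in replicate 1 and 14.3% in replicate 2. Neuropeptide genes had one at 23 of 102 (22.5%), with 37.3% in replicate 1 and 23.5% in replicate 2. Ribosomal protein genes had one at 66 of 78 (84.6%), 12 of them reproducible, and a summit density in the window of 711 per Mb, beside 122 per Mb for col genes, 185 for neuropeptide genes and 216 for all genes.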

How the data were processed

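Peaks of MEL-28-GFP ChIP-seq from 2 biological replicates of whole young adults were taken as deposited, from the lists on ce11. Per the manifests deposited with the files, the list of each replicate came from its own alignments and a control shared by both replicates, the pooled list from both, and the reproducible list from these lists by the irreproducible discovery rate. The sources used here name no aligner, peak caller, version or threshold. As signal, the value deposited by the authors for each peak was used, on a scale these sources do not state. The authors also deposited a −log10 q-value per peak, which was equal at all reproducible peaks, so it ranked nothing here. The files used give no read counts, so the depth of each library is unknown and no interval covers it. The control and the ce10 lists were not analysed here.

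Genes came from Ensembl release 115 (WBcel235, the same assembly) and sequence from RefSeq ce11. Coordinates are 1-based, and 0 peaks ran past a chromosome end. Promoter windows took 1000 bp upstream and 500 bp downstream of each 5′ end, and mitochondrial peaks were left out. No test was run, because there is 1 group and genes are not replicates. Shares carry exact (Clopper-Pearson) 95% intervals over genes, and all genes include the members. The assignment of summits was tested on simulated data and returned 150 of 150 summits planted inside windows and 0 of 50 planted just outside. Promoter and summit sequences were matched by coordinates, and protein features were computed from the annotated coding sequences.

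The members, gene lists and motifs were chosen with earlier results of these data known. Named members were those with a reproducible summit, the 15 highest in pooled signal, the 5 highest in each replicate, those sharing a summit, and col-2, col-7, col-10, col-12, col-13, col-17, col-19 and col-99. Others named were chosen after their values had been seen, as were the counts over gene bodies and GC classes. Alternatives varied the window, the overlap rule, small RNA genes, transcript ends, list depth and replicates. Python 3.11.15, numpy 2.4.6, pandas 2.3.3 and scipy 1.17.1 were used.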

Additional observations from a re-analysis of the deposited data

How the results depend on the processing

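The share of members with a summit lay below that of all genes in every window and overlap rule run. This held for the pooled list and for both replicates together, but the counts and the gap moved with the rule. The reproducible counts, of 0 to 2 members, were too small to set against the background. With 2000 bp upstream, for example, the reproducible share was 1.28%, beside 1.6% of all genes. With 500 bp upstream to 250 bp downstream the pooled, reproducible and both-replicate counts were 11, 0 and 4 members. The pooled share was 7.05%, beside 18.8% of all genes, and that in both replicates 2.56%, beside 9.96%. With 2000 bp upstream to 500 bp downstream the counts were 40, 2 and 24. The pooled share was then 25.6%, beside 37.3%, and that in both replicates 15.4%, beside 27.1%. With the window run to the 3′ end the counts were 63, 2 and 43, with 27.6% in both replicates, beside 35.4%. Counting any overlap of the peak interval gave 45 pooled members and 23 in both replicates (14.7%, beside 22% of all genes). The pooled gap narrowed to 40.4% beside 44.1% with the window run to the 3′ end and to 28.8% beside 32.4% with any overlap, against 16.0% beside 28.2% as reported. With the stronger 50% of each list the counts were 12 (7.69%, beside 17% of all genes), 0 and 4 (2.56%, beside 9.3%). The median signal was then 44.3, beside 48.9. Leaving out summits near small RNA genes gave 0 reproducible members, beside 1.01% of all genes, since the tRNA summit at col-85 was the only one. Using the 5′ ends of all transcripts gave 2 (1.28%, beside 1.33%). Cutting each replicate list to the length of the pooled list gave 6 members in both (3.85%, beside 14.3% of all genes).

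With 1 replicate left out, the list of the other stood in for the pooled list, and no new pooled list was made. The counts were thus the 32 and 35 members already given for the replicates. The reproducible count, taken as the strongest peaks of the remaining list, ran from 0 to 1. The median signal ran from 18.31 to 26.28, on different scales. Without replicate 1 the median was 26.28 beside 26.0 for all genes, so the lower median of the members rests on the pooled list and replicate 1. The other alternatives changed each count by less than 1.5 times. No paired analysis was possible because the samples form 1 group. With 2 replicates and no read counts, the depth at which a col promoter would be called cannot be set, and a window without a summit shows only that none passed the depositors' calling.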
